A study of Macaca fascicularis with 6 samples.

Results

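The small leucine-rich proteoglycans (SLRPs) were followed through chondrogenic differentiation and transplantation. The members were the genes *DCN*, *BGN*, *FMOD*, *LUM*, *PRELP*, *ASPN*, *OGN*, *EPYC*, *CHAD* and *OMD*, chosen by name as the family members known from cartilage and tendon. All 10 of 10 were listed in both deposited single-cell matrices, among 13950 genes in the first and 14020 in the second.

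SLRPs are secreted core proteins built of leucine-rich repeats, most of which carry chondroitin, dermatan or keratan sulfate chains. Many of them bind fibrillar collagen and set the spacing and thickness of its fibrils, and several also bind growth factors such as TGF-β. In articular cartilage they sit on type II collagen fibrils and between the fibrils and the pericellular matrix, and in tendon and scar they sit on type I collagen.

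The cells came from the cynomolgus monkey and were read by TAS-Seq, a bead-based single-cell method with whole-transcriptome amplification. The cyiPSC sample held undifferentiated iPS cells of 1 line, which carries an EGFP transgene and grew on feeder cells, and pre-transplant cyiPS-Cart held the cartilage organoids differentiated from that line in culture. Post-transplant cyiPS-Cart was recovered 4 months after allogeneic organoids were placed in chondral defects of the knee of monkeys 3 to 4 years old. Its label gives the wild-type genotype of the recipient, whereas the study describes its cells as EGFP-carrying donor cells. The cyAC sample was intact articular cartilage and cyFT the fibrous tissue that had filled defects left empty, both from wild-type monkeys of that age. All tissues were minced and digested to single cells with Liberase, and transplanted sites of the same monkey were combined for sequencing. The digestion medium of pre-transplant cyiPS-Cart held TGF-β1, GDF5 and BMP2, and none of these is listed for cyAC and post-transplant cyiPS-Cart. Several monkeys were operated on in each group, and the study's methods do not say whether a sample holds cells of more than 1.

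Every condition was 1 sample, so no test between conditions was possible. The 95% intervals below (exact Poisson for levels, exact conditional for ratios, Clopper-Pearson for shares) cover counting error only. Those of levels and ratios treat every read as independent. No step counting molecules is described, and reads copied from the same molecule would make these intervals too narrow. CyiPSC and pre-transplant cells shared a library, as did cyAC and cyFT cells, and post-transplant cells had a library of their own. Library and transplantation therefore cannot be told apart, nor can digestion medium between pre-transplant and post-transplant cells. The first matrix held 2500 cyiPSCs and 3527 pre-transplant cells with medians of 143075 and 59249 reads per cell. The second held 320 cells of each of the 4 tissues, with medians of 58413.5 reads in pre-transplant cyiPS-Cart, 80335.5 in post-transplant cyiPS-Cart, 29699 in cyAC and 27499.5 in cyFT. The median mitochondrial share was 7.85% in cyiPSC, 5.46% and 5.24% in the pre-transplant cells of the first and second matrix, 1.68% in post-transplant cyiPS-Cart, 3.37% in cyAC and 3.76% in cyFT. Taking CPM without mitochondrial genes moved 19 of 50 log2 ratios of members beyond their counting interval and reversed 0 of those past 2-fold. No cell name was shared between samples. Of the 320 pre-transplant cells of the second matrix, 300 were among those of the first, with 0 differing member counts, so the pre-transplant values of the matrices are not independent.

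The tissue labels were checked against marker lists. The summed level of 9 chondrocyte markers was 122 CPM (counts per 1000000 reads of the sample) in cyiPSC, from 45291 to 78594 CPM in the cartilage samples and 36527 CPM in cyFT. The 6 listed pluripotency markers summed to 684 CPM in cyiPSC and to 14.1 CPM or less elsewhere. The 5 listed macrophage markers reached 733 CPM in cyFT, where 16 of 320 cells held reads of at least 3 of them, against 25.8 CPM or less in the other samples. The 6 fibroblast markers, among them *COL1A2* and *COL3A1*, which cartilage cells also express, summed to 22798 CPM before and 70673 CPM after transplantation, 8637 CPM in cyAC and 47096 CPM in cyFT. Osteoblast markers summed to 1123 CPM in cyFT and to 39.7 CPM or less in the other tissues. Smooth muscle, endothelial, T cell, tendon and erythroid lists stayed at or below 110 CPM in every sample.

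Members together took 0.00406% of all reads in cyiPSC, 1.31% in pre-transplant cyiPS-Cart in either matrix, 4.37% in post-transplant cyiPS-Cart, 4.77% in cyAC and 3.40% in cyFT. Because reads are summed over a sample, more cells that express a gene and more RNA per cell cannot be told apart in these levels.

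**Figure D1:**
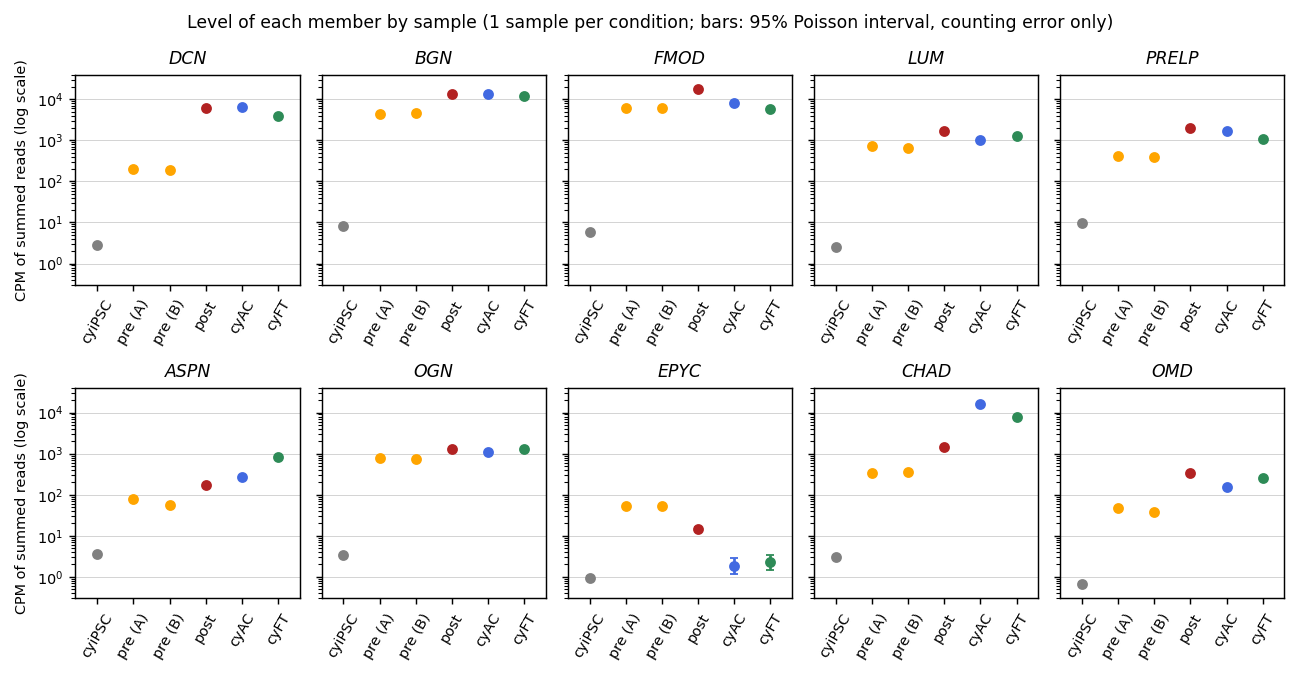
Level of each member in each sample, as CPM of summed reads on a log axis, with 1 sample per condition and bars for the 95% Poisson interval. The interval treats reads as independent, covers counting error only and is mostly smaller than the point. "Pre (A)" and "pre (B)" are the pre-transplant cells of the first and second matrix. Every member is lowest in cyiPSC, at 9.59 CPM or less. *CHAD* is highest in cyAC at 15717 CPM, *ASPN* in cyFT at 832 CPM, *FMOD* in post-transplant cyiPS-Cart at 17292 CPM, and *EPYC* is highest before transplantation.

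The first group holds *DCN*, *BGN* and *ASPN*. Decorin (*DCN*) carries a single glycosaminoglycan chain, binds collagen and holds TGF-β. *DCN* was at 2.79 CPM in cyiPSC, 199 and 193 CPM in the pre-transplant cells of the first and second matrix, 6282 CPM in post-transplant cyiPS-Cart, 6515 CPM in cyAC and 3890 CPM in cyFT. Pre-transplant cyiPS-Cart thus lay far below the other tissues, and post-transplant cyiPS-Cart lay 1.04-fold below cyAC. The median cell held 59.3 CPM of *DCN* before and 5527 CPM after transplantation, against 5770 CPM in cyAC and 2822 CPM in cyFT. Cells with at least 1 *DCN* read made up 59.4% of pre-transplant cells (53.8 to 64.8), 98.1% of post-transplant cells, 100% of cyAC cells and 98.8% of cyFT cells. The lowest *DCN* count left by the authors' correction was 18 reads in the post-transplant library against 1 in the others, and with 18 reads required everywhere the shares were 23.1%, 98.1%, 97.5% and 76.9% in the same order.

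Biglycan (*BGN*) is the closest relative of decorin and also carries glycosaminoglycan chains. *BGN* was at 8.27 CPM in cyiPSC, 4413 and 4519 CPM in pre-transplant cyiPS-Cart, 13144 CPM in post-transplant cyiPS-Cart, 13397 CPM in cyAC and 11778 CPM in cyFT. The 3 samples taken from joints lay within 1.14-fold of each other, and at least 99.1% of cells in all 4 tissues held *BGN* reads.

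Asporin (*ASPN*) has an aspartate-rich end, usually carries no glycosaminoglycan chain and binds TGF-β. *ASPN* was at 3.55 CPM in cyiPSC, 79.6 and 55.0 CPM in pre-transplant cyiPS-Cart, 168 CPM in post-transplant cyiPS-Cart, 270 CPM in cyAC and 832 CPM in cyFT. It was unevenly spread, since the 10% of cells with most *ASPN* reads held 81.2% of those reads in post-transplant cyiPS-Cart and 88.0% in cyAC, against 55.7% in cyFT. Reads were found in 34.7% of pre-transplant, 19.4% of post-transplant, 39.4% of cyAC and 68.4% of cyFT cells. No order is read from the first 2 shares, which go against the levels. The post-transplant library lists no *ASPN* count below 15 reads after the authors' background correction, and counting only 15 reads or more in every library gave 8.75%, 19.4%, 11.3% and 38.4%.

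The second group holds the keratan sulfate bearing or related members *FMOD*, *LUM*, *PRELP* and *OMD*. Fibromodulin (*FMOD*) binds fibrillar collagen and guides its cross-linking. *FMOD* was at 5.94 CPM in cyiPSC, 5994 and 6077 CPM in pre-transplant cyiPS-Cart, 17292 CPM in post-transplant cyiPS-Cart, 7889 CPM in cyAC and 5876 CPM in cyFT. Post-transplant cyiPS-Cart stood above the other tissues, with a median cell at 17316 CPM against 5920 CPM before transplantation, 6827 CPM in cyAC and 5085 CPM in cyFT.

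Lumican (*LUM*) shares the collagen site of fibromodulin and is known best from the cornea. *LUM* was at 2.50 CPM in cyiPSC, 737 and 651 CPM in pre-transplant cyiPS-Cart, 1698 CPM in post-transplant cyiPS-Cart, 1002 CPM in cyAC and 1297 CPM in cyFT. Cells with *LUM* reads made up 81.9% before (77.2 to 85.9) and 98.1% after transplantation (96.0 to 99.3), 51.6% in cyAC (45.9 to 57.2) and 70.9% in cyFT (65.6 to 75.9), and after thinning every cell at random to 12191 reads, to take out depth, 79.6%, 95%, 51.9% and 71.9%. The lowest *LUM* count left by the authors' correction was 6 reads in the pre-transplant library, 1 in the post-transplant library and 8 in that of cyAC and cyFT. Thinning does not undo these floors, so the *LUM* shares are not compared between libraries. In cyAC the 10% of cells with most *LUM* reads held 67.3% of them, against 35.3% in post-transplant cyiPS-Cart.

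PRELP links collagen to basement membrane heparan sulfate. *PRELP* was at 9.59 CPM in cyiPSC, 415 and 400 CPM in pre-transplant cyiPS-Cart, 2008 CPM in post-transplant cyiPS-Cart, 1675 CPM in cyAC and 1067 CPM in cyFT. Osteomodulin (*OMD*) was first known from bone and dentin. *OMD* was at 0.660 CPM in cyiPSC, 46.6 and 37.6 CPM in pre-transplant cyiPS-Cart, 335 CPM in post-transplant cyiPS-Cart, 157 CPM in cyAC and 256 CPM in cyFT. For both genes post-transplant cyiPS-Cart had the highest level. *OMD* reads were found in 77.8% of post-transplant cells, against 31.3% before transplantation, 42.2% in cyAC and 44.1% in cyFT, and after thinning in 66.3%, 17.2%, 37.7% and 40.6%.

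The third group holds *OGN* and *EPYC*, whose proteins have shorter repeat domains. Osteoglycin (*OGN*, mimecan) is found in bone, tendon and cornea. *OGN* was at 3.35 CPM in cyiPSC, 774 and 725 CPM in pre-transplant cyiPS-Cart, 1299 CPM in post-transplant cyiPS-Cart, 1094 CPM in cyAC and 1330 CPM in cyFT. It varied least of all members across the 4 tissues, and the intervals of cyFT (1309 to 1352) and post-transplant cyiPS-Cart (1286 to 1312) overlapped.

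Epiphycan (*EPYC*) is known from growth plate cartilage. *EPYC* was at 0.951 CPM in cyiPSC, 53.3 and 53.9 CPM in pre-transplant cyiPS-Cart, 14.6 CPM in post-transplant cyiPS-Cart, 1.86 CPM in cyAC (1.17 to 2.82) and 2.25 CPM in cyFT (1.46 to 3.33), the last 2 of which overlap. It was the only member with its highest level before transplantation. Reads were found in 32.2% of pre-transplant cells, 5.63% of post-transplant cells, 1.25% of cyAC and 0.938% of cyFT cells, and after thinning in 20.4%, 4.06%, 0.649% and 1.04%.

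Chondroadherin (*CHAD*), the fourth group, carries no typical glycosaminoglycan chain and binds chondrocytes through integrin as well as collagen. *CHAD* was at 3.07 CPM in cyiPSC, 342 and 356 CPM in pre-transplant cyiPS-Cart, 1436 CPM in post-transplant cyiPS-Cart, 15717 CPM in cyAC and 7669 CPM in cyFT. The native cartilage stood above all the others, and it also did so cell by cell, with a median of 15050 CPM against 1104 CPM in post-transplant and 157 CPM in pre-transplant cells. In cyFT the level was split, since the median cell held 904 CPM and the 10% of cells with most *CHAD* reads held 57.1% of them. The 15 cyFT cells with macrophage markers and no *COL2A1* read were at 393 CPM.

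**Figure D2:**
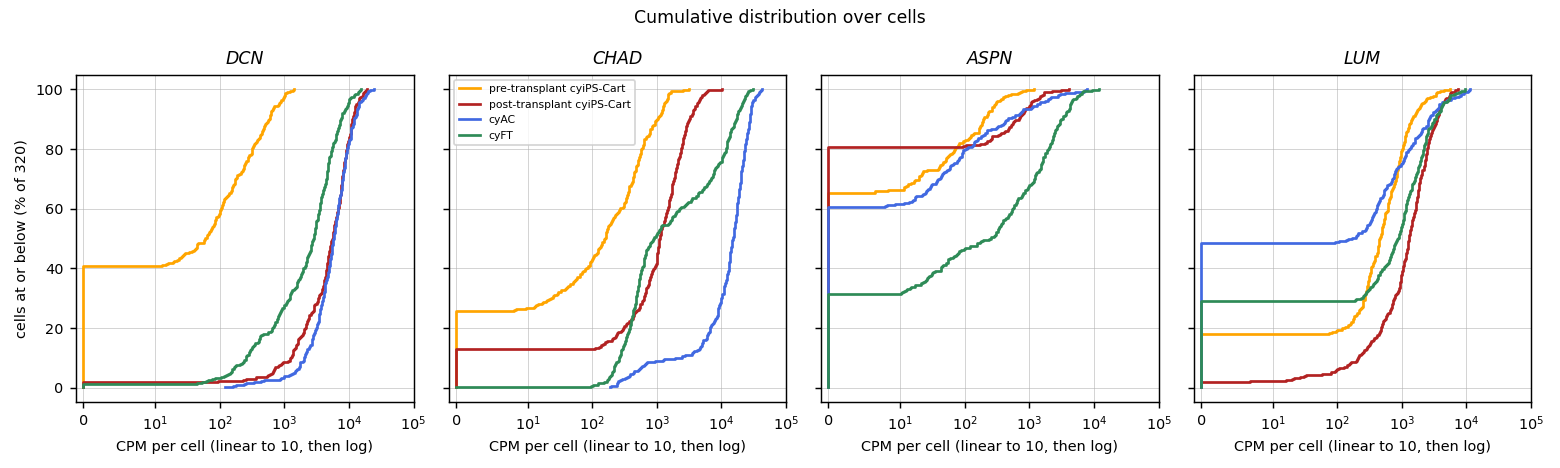
Cumulative distribution of *DCN*, *CHAD*, *ASPN* and *LUM* over the 320 cells of each sample of the second matrix, with CPM per cell on the x axis (linear to 10, then log) and the percentage of cells at or below that level on the y axis. *DCN* curves of post-transplant cyiPS-Cart and cyAC run together, and the *CHAD* curve of cyFT climbs in 2 steps around its median of 904 CPM. Listed without reads are 80.6% of post-transplant cells for *ASPN* and 48.4% of cyAC cells for *LUM*, in libraries with count floors of 15 and 8 reads.

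Free RNA can put reads into cells that do not express a gene. In the first library the cyiPSCs were taken as a measure of this for some members. Whether free RNA was the source of these reads, here or in the second measure below, was not tested. *BGN* and *FMOD* reads were found in 1.16% and 0.760% of cyiPSCs, *LUM* in 2.84% and *OGN* in 3.36%, but *PRELP* in 43.7%, *CHAD* in 23.0%, *ASPN* in 18.7% and *DCN* in 13.4%, at 9.59, 3.07, 3.55 and 2.79 CPM. The authors' correction left no count below 38 for *BGN*, 40 for *FMOD*, 6 for *LUM* and 7 for *OGN* in that library, against 1 for *PRELP*, *CHAD*, *ASPN* and *DCN*, so the low shares of the first 4 genes give no measure of free RNA. Thinned to 30967 reads, *PRELP*, *CHAD*, *ASPN* and *DCN* fell to 18.7%, 7.25%, 5.49% and 3.77%, against 79.6%, 70.5%, 30.3% and 58.3% of pre-transplant cells. *EPYC* and *OMD* reads were found in 8.64% and 5.28% of cyiPSCs, and in 1.97% and 1.60% after thinning. The 18 cyiPSCs that scrublet marked as doublets or that held *COL2A1* reads carried 91.1% of the *FMOD* and 81.2% of the *BGN* reads of that sample. In the library of cyAC and cyFT, the 15 cyFT cells with macrophage markers and no *COL2A1* read gave a second measure, at a median of 46002 reads per cell. All of them held *BGN*, *FMOD* and *CHAD* reads and 93.3% held *DCN* reads, at 397, 224, 393 and 206 CPM, so shares for these genes carry no information there and levels are used. The library lists no *LUM* count below 8 reads, so *LUM* gives no such measure there. *ASPN* reads were found in 40% of them at 12.6 CPM, so the *ASPN* share of 39.4% in cyAC is not read as expression, while its level was 270 CPM and 11.3% of cyAC cells held 15 reads or more. No such cells were found in the post-transplant library.

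How the family differed between cyiPSC and the organoids was asked first. Each ratio is log2 of CPM + 1. Genes entered when either sample reached 50 CPM and either had reads in 25% of its cells, and a gene was counted as higher or lower past 2-fold. *OMD* missed this filter, and 9 of the 9 members that passed were higher in pre-transplant cyiPS-Cart and 0 lower, where 18.4% of 4684 genes were higher and 38.5% lower. Every member was at 9.59 CPM or less in cyiPSC, so each could pass only through its pre-transplant level. The direction of these 9 calls was therefore fixed by the filter, and their count is not read against the shares of all genes. The median log2 ratio was 6.40 over these members and -0.63 over all genes, and edgeR's TMM scaling moved the shares of all genes to 30.8% and 16.8% and their median to 0.25. *FMOD* had the largest member ratio, a 1010-fold higher level (971 to 1051) with a log2 ratio of 9.76, second among all genes tested. *BGN* followed with 8.89, *LUM* with 7.72 and *OGN* with 7.48, and *ASPN* had the smallest ratio, 4.15. Leaving out the marked doublets, all of them cyiPSCs, raised *FMOD* to 11.04 and *BGN* to 10.44.

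How the organoids differed after transplantation was asked next. All 10 members passed the filter, 8 were higher and 1 lower after transplantation, where 8.16% of 3421 genes were higher and 22.1% lower (11.5% and 14.3% with TMM). The median log2 ratio was 1.57 over members and -0.39 over all genes, the latter -0.12 with TMM. *DCN* was 32.5-fold higher (31.5 to 33.5), a log2 ratio of 5.02 and the fifth highest of all genes tested. *OMD* was 8.91-fold higher (8.29 to 9.59), *PRELP* 5.02-fold (4.90 to 5.13) and *CHAD* 4.03-fold (3.93 to 4.13). *ASPN*, *BGN*, *FMOD* and *LUM* were between 2.61-fold and 3.05-fold higher, and *OGN* stayed within 2-fold at 1.79-fold, though it passed with TMM. *EPYC* alone was lower, by 3.68-fold (3.30 to 4.12). It fell below the filter, and so was not counted, with thinned reads or the mean of per-cell CPM, as did *ASPN* with thinned reads or common count floors.

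**Figure D3:**
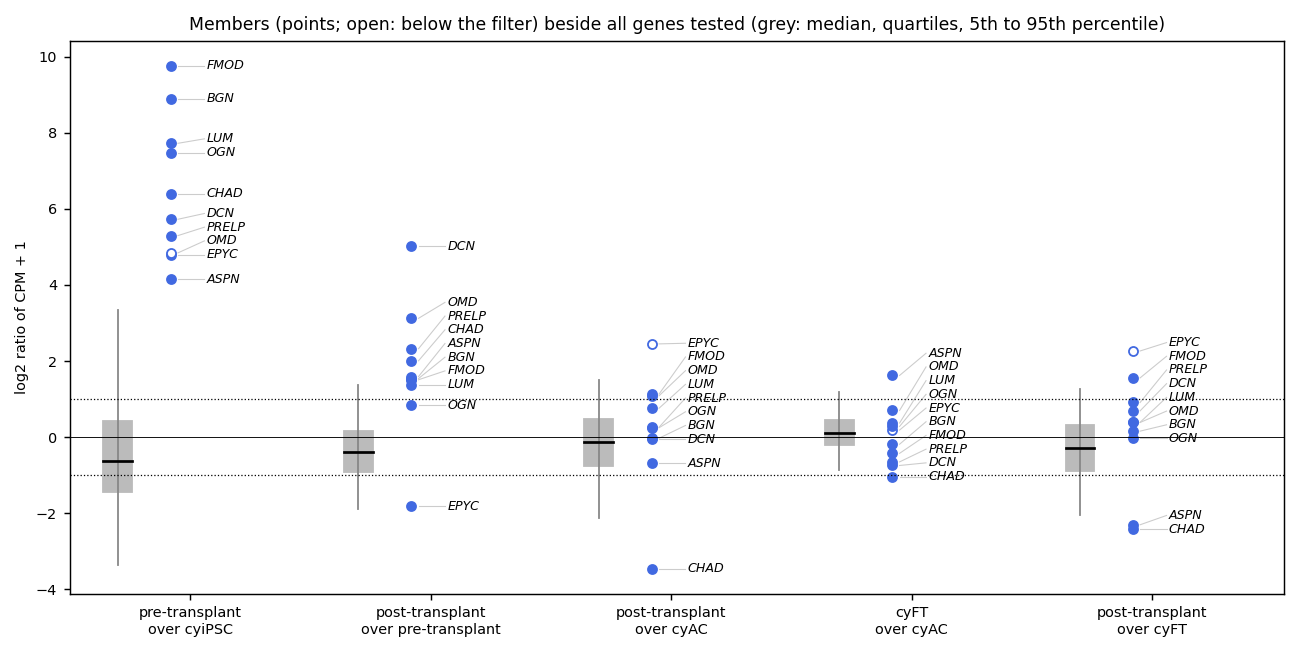
Log2 ratios of CPM + 1 of the members in the 5 comparisons (points, open where a member missed the filter) beside all genes tested (grey: median line, quartile box, whisker from the 5th to the 95th percentile), with dotted lines at 2-fold. All members lie above the 95th percentile of 3.35 in the first comparison, *DCN* at 5.02 leads the second, *CHAD* lies at -3.45 in the third, and the comparisons share samples.

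The post-transplant organoid was then set beside the native tissues. The 3 comparisons among post-transplant cyiPS-Cart, cyAC and cyFT share samples, so their values are given side by side and not as separate evidence. Against cyAC, 9 members passed the filter, 2 were higher and 1 lower in post-transplant cyiPS-Cart, where 10.8% of 3235 genes were higher and 17.8% lower. The median log2 ratio was 0.25 over members and -0.13 over all genes, the latter 0.02 with TMM. *FMOD* was 2.19-fold higher (2.18 to 2.21) and *OMD* 2.13-fold (2.03 to 2.24), and *CHAD* was 10.9-fold lower (10.8 to 11.1), the 43rd lowest ratio of all genes tested. The *OMD* call was lost with thinned reads, at a log2 ratio of 0.85. *DCN*, *BGN*, *LUM*, *PRELP*, *ASPN* and *OGN* lay within 2-fold, at log2 ratios of -0.05, -0.03, 0.76, 0.26, -0.68 and 0.25. *EPYC*, at 14.6 against 1.86 CPM, missed the filter.

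Against cyFT, 9 members passed, 1 was higher and 2 were lower in post-transplant cyiPS-Cart, where 7.85% of 3389 genes were higher and 21.4% lower (13.9% and 13.6% with TMM). The median log2 ratio was 0.39 over members and -0.29 over all genes, the latter 0.09 with TMM. *FMOD* was 2.94-fold higher (2.92 to 2.97), *CHAD* 5.34-fold lower (5.28 to 5.41) and *ASPN* 4.95-fold lower (4.79 to 5.13). *PRELP* lay just within 2-fold at a log2 ratio of 0.91, and passed it with TMM at 1.21.

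In cyFT against cyAC, which shared a library, 9 members passed, 1 was higher and 1 lower, where 7.06% of 3270 genes were higher and 3.73% lower (5.01% and 5.64% with TMM). The median log2 ratio was -0.19 over members and 0.11 over all genes, the latter -0.10 with TMM. *ASPN* was 3.08-fold higher in cyFT (2.96 to 3.21) and *CHAD* 2.05-fold lower (2.03 to 2.07), and the other members lay between log2 ratios of -0.74 for *DCN* and 0.70 for *OMD*. Leaving out the 16 cells with macrophage markers put *CHAD* in cyFT at 8101 CPM against 15717 CPM in cyAC, just within the 2-fold threshold.

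Because cyFT held cells of different kinds, each sample was split by reads of *COL2A1*, the collagen of hyaline cartilage, and *COL1A1*, that of fibrous tissue. In cyFT 170 cells held *COL1A1* alone, 84 held *COL2A1* alone, 33 held both and 33 neither, with medians of 21830 reads per cell in the first class and 47802.5 in the second. *COL2A1* alone was held by 276 cells of cyAC, 265 of post-transplant and 242 of pre-transplant cyiPS-Cart. A cell with fewer *COL1A1* reads than the lowest count left by the authors' correction, 277 before transplantation, 497 after and 76 in the library of cyAC and cyFT, is listed without them. The classes rest on measured reads, so what follows describes them.

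Within cyFT the members parted between these classes. *ASPN* was at 1867 CPM in cells with *COL1A1* alone and at 16.1 CPM in cells with *COL2A1* alone, the latter near the 12.6 CPM of the macrophage-marker cells. *OGN* was at 2577 CPM against 344 CPM, a 7.49-fold difference in the same direction. *CHAD* ran the other way, at 1142 CPM against 16163 CPM, 14.2-fold lower in cells with *COL1A1* alone. It was at 393 CPM in the 15 macrophage-marker cells without *COL2A1* reads, and how much of the 1142 CPM came from other cells was not tested. *DCN* (2403 against 6308 CPM) and *OMD* (124 against 472 CPM) were also lower there, by 2.63-fold and 3.80-fold. *BGN*, *FMOD*, *LUM* and *PRELP* differed by less than 2-fold, and *BGN*, *FMOD* and *PRELP* were highest in the cells with both collagens, at 18314, 12812 and 1901 CPM.

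In the organoids the cells with both collagens, 58 before and 47 after transplantation, were set against those with *COL2A1* alone. *DCN* was at 58.0 against 251 CPM before and at 2545 against 7128 CPM after transplantation. *CHAD* was at 157 against 448 CPM before and at 892 against 1581 CPM after. *ASPN* was at 105 against 30.4 CPM before and at 230 against 116 CPM after. *PRELP* was also lower in the cells with both collagens, 2.60-fold before and 1.32-fold after, as were *LUM*, 1.86-fold and 1.59-fold, and *FMOD*, at 4633 against 6871 CPM before and 14551 against 18315 CPM after. *OMD* was at 55.2 against 33.6 CPM before and at 272 against 347 CPM after, while *BGN* and *OGN* differed by 1.07-fold or less at either time.

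Among cells with *COL2A1* alone, *CHAD* was at 448 CPM before and 1581 CPM after transplantation, 17736 CPM in cyAC and 16163 CPM in cyFT. The cyFT cells of this class thus lay near cyAC, and the post-transplant cells stayed 11.2-fold below cyAC. *DCN* was at 251, 7128, 7013 and 6308 CPM in the same order, and *FMOD* at 6871, 18315, 7984 and 4711 CPM. *ASPN* was at 30.4, 116, 133 and 16.1 CPM, so its excess in cyFT was found outside this class. *OGN* was at 727, 1305, 1107 and 344 CPM and *OMD* at 33.6, 347, 179 and 472 CPM.

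**Figure D4:**
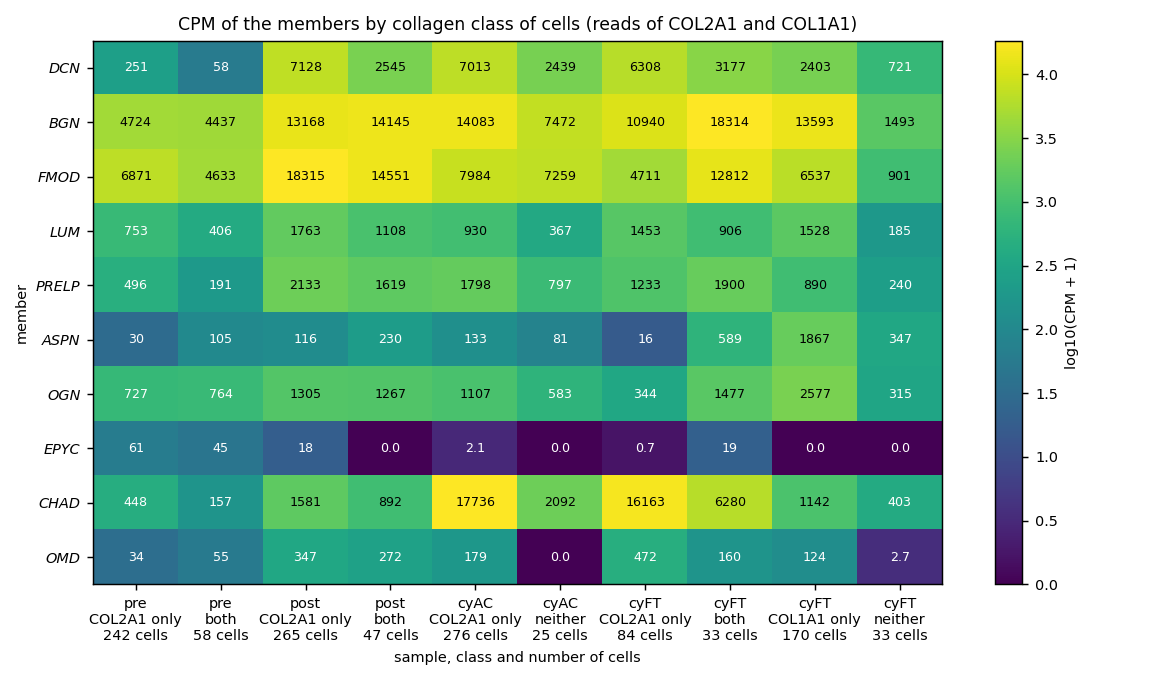
CPM of each member by collagen class of cells in the 4 samples of the second matrix, for classes of at least 20 cells, with color as log10 of CPM + 1. In cyFT, *ASPN* and *OGN* are high in cells with *COL1A1* alone (1867 and 2577 CPM) and *CHAD* in cells with *COL2A1* alone (16163 CPM), and *CHAD* in the *COL2A1* cells of the organoids stays at 448 and 1581 CPM.

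Members were also compared across the cells of each sample by Spearman correlation of CPM per cell, for pairs in which both genes had reads in at least 25% of cells. The cells of a sample share a library and differ in depth, so these values are descriptions without a test. Medians over pairs were low, between 0.14 and 0.19 over 28 to 45 pairs, and 10, 4, 13 and 11 pairs exceeded 0.3 in pre-transplant, post-transplant, cyAC and cyFT cells. *FMOD* and *PRELP*, which lie side by side in the RefSeq gene order, had rho of 0.68, 0.47, 0.59 and 0.55 over 320 cells each. *DCN* and *LUM*, also neighbors, had 0.36, 0.56, 0.38 and 0.55, of which the first fell to 0.24 with thinned reads. Over the 169, 309, 165 and 226 cells with reads of both genes the values were 0.28, 0.54, 0.41 and 0.34. The 3 neighbors *OGN*, *OMD* and *ASPN* did not keep together, since in cyFT *ASPN* with *OGN* had 0.61 but *ASPN* with *OMD* had -0.32. These shrank to 0.41, over 207 cells, and -0.14, over 81 cells, where only cells with reads of both genes were taken.

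In cyFT *CHAD* had rho of 0.55 with *OMD*, 0.50 with *DCN*, -0.49 with *ASPN* and -0.37 with *OGN*, and 0.80 with *COL2A1*. Over the cells with reads of both genes the value with *OMD* fell to 0.18, over 141 cells, and those with *DCN*, *ASPN* and *OGN* were 0.51, -0.43 and -0.47. *ASPN* and *OGN* had -0.56 and -0.46 with *COL2A1* and 0.60 and 0.61 with *COL3A1*. Negative values of *CHAD* with *ASPN* were found in other samples too, at -0.20 before transplantation and -0.26 in cyAC. Over the cells with reads of both genes these were -0.05, over 72 cells, and -0.36, over 126 cells. *CHAD* with *OGN* had -0.05 before, -0.03 after and -0.22 in cyAC, those in the organoids being small. *FMOD* with *CHAD* ran from 0.55 before and 0.29 after transplantation to -0.26 in cyAC and 0.25 in cyFT. *BGN* with *FMOD* had 0.40, 0.06, 0.46 and 0.71. Reads per cell had rho of 0.40 with *CHAD* and -0.31 with *OGN* in cyFT, and thinning left *CHAD* with *ASPN* there at -0.49.

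**Figure D5:**
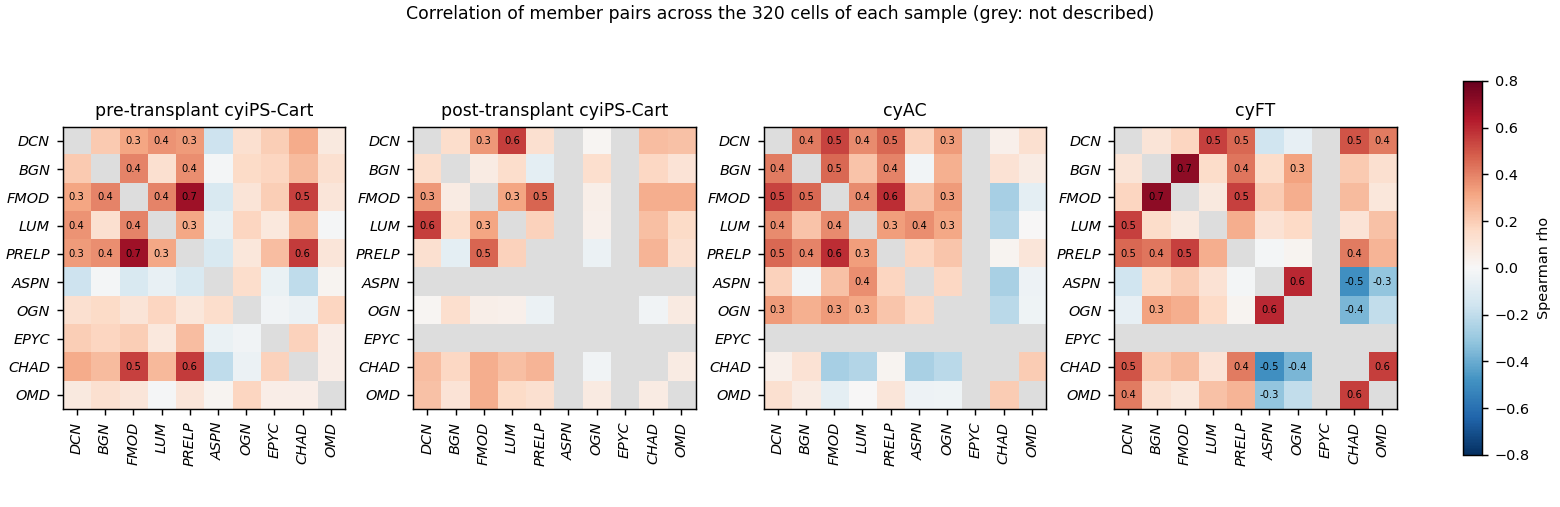
Spearman rho of member pairs across the 320 cells of each sample of the second matrix, with red for positive and blue for negative values, sizes above 0.3 printed, and grey where a gene had reads in under 25% of cells. *FMOD* with *PRELP* is at 0.47 or more in every panel, and *CHAD* is negative with *ASPN* (-0.49) and *OGN* (-0.37) in cyFT.

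Outside the members, which are compared with each other above, and outside mitochondrial and ribosomal protein genes, the genes whose cell-to-cell pattern was most like each member were taken from the 3505 genes compared, by the median rho over the samples in which both were described. *CHAD* was nearest to *CLEC3A*, a cartilage lectin (median rho 0.45 over 4 samples), and to *SPARC*, a collagen-binding matrix protein (0.45, and 0.81 in cyFT). *SPARC* was also among the nearest 2 such genes of *BGN* (0.39), *FMOD* (0.42) and *PRELP* (0.41). *DCN* was nearest to *SNORC*, a chondrocyte membrane proteoglycan (0.42), although rho was -0.06 in cyAC, and to *COL2A1* (0.42). *FMOD* was nearest to *THBS4* (0.45 over 4 samples). *ASPN* was nearest to *COL1A2* (0.38 over 2 samples) and *COL5A1* (0.35 over 3), and *OGN* to *COL3A1* (0.34 over 4). For *LUM*, *EPYC* and *OMD* the highest medians with a gene outside the members were 0.31 with *THBS4*, 0.33 with *FRZB* in 1 sample and 0.25 with *CLCF1*, which in sparse counts is weak.

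The genes that build, bind and cut SLRPs were counted in the same comparisons. All 7 fibrillar collagens bound by the family (*COL1A1*, *COL1A2*, *COL2A1*, *COL3A1*, *COL5A1*, *COL5A2* and *COL11A1*) were higher in pre-transplant cyiPS-Cart than in cyiPSC, as were 18.4% of all genes tested. After transplantation 2 of 6 tested were higher, against 8.16% of all genes, *COL1A2* at a log2 ratio of 2.74 and *COL3A1* at 1.55. Against cyAC, 4 of 6 were higher in post-transplant cyiPS-Cart, against 10.8% of all genes, and in cyFT against cyAC 3 of 7 were higher, against 7.06%, and *COL2A1* was lower, at -1.19, against 3.73% of all genes. Against cyFT, 4 of 7 were higher in post-transplant cyiPS-Cart, against 7.85% of all genes. Of the enzymes that start the glycosaminoglycan chain, 2 of 3 tested were higher in pre-transplant cyiPS-Cart than in cyiPSC, beside the same 18.4% of all genes. In post-transplant cyiPS-Cart 0 of 3 were past 2-fold from the pre-transplant cells, and 1 of 3 was higher than in cyAC and 1 of 3 than in cyFT. *XYLT1*, which adds the first sugar, was at 14.2, 205, 393, 220 and 193 CPM in cyiPSC, pre-transplant, post-transplant, cyAC and cyFT cells. Of the keratan sulfate enzymes, 3 of 4 tested were higher in pre-transplant cyiPS-Cart than in cyiPSC. After transplantation 1 of 4 was lower, against 22.1% of all genes. Against cyAC, 1 of 4 was higher and 1 lower, where 17.8% of all genes were lower, and against cyFT 1 of 3 was higher. None of 4 was past 2-fold between cyFT and cyAC. The sulfotransferase *CHST6* was at 151 and 144 CPM before and after transplantation against 59.0 in cyAC and 57.3 in cyFT, with the post-transplant level past 2-fold from both, and *B4GALT1* was at 72.6 CPM after transplantation against 167 before and 221 in cyAC. Of the proteases, 3 of 3 tested were higher in pre-transplant cyiPS-Cart than in cyiPSC and 0 of 3 were past 2-fold after transplantation. In post-transplant cyiPS-Cart 1 of 3 was lower than in cyAC and 1 of 3 than in cyFT, against 17.8% and 21.4% of all genes, and in cyFT against cyAC 1 of 3 was higher and 1 lower. *MMP3* was at 427, 299, 1441 and 439 CPM in pre-transplant, post-transplant, cyAC and cyFT cells and *MMP2* at 97.0, 54.7, 67.4 and 181 CPM. *HTRA1* was within 2-fold in each of the 4 comparisons among these samples. Of the 6 receptors, *ITGB1* was the only one above the filter and stayed within 2-fold throughout, and no dermatan sulfate or tyrosine sulfation enzyme passed it.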

How the data were processed

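Per-cell counts of 5 samples in 3 transcriptome libraries were used, and 3 hashtag libraries were not used here. The authors deposited 2 count matrices, made by assigning reads to Ensembl cDNA of the cynomolgus monkey with Bowtie2 2.4.2 after trimming with cutadapt 3.4, keeping cells above the knee, separating samples by hashtag, setting background counts in highly expressed genes to 0, filtering on mitochondrial share and, in the second matrix, reducing samples to 320 cells. The submitters' processing notes name the human build GRCh38 where the study's methods name the cynomolgus cDNA, and the methods were followed. No step counting molecules is described, so counts were taken as reads. Cells were assigned to samples by the prefixes of their names.

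Reads were summed per sample and given as CPM, without gene length, so levels are compared only within a gene. Scrublet (scanpy 1.11.5) marked 14 of 2500 cyiPSCs, 0 of 3527 pre-transplant cells of the first matrix, which is too few to have worked, and 8, 7, 2 and 2 cells of pre-transplant, post-transplant, cyAC and cyFT in the second. Marked cells were kept. For shares at equal depth, cells were thinned to 30967 (first matrix) or 12191 reads, leaving out 60 cyiPSCs and 353 pre-transplant cells of the first matrix and 1, 0, 12 and 32 cells of the second. TMM factors came from edgeR 4.0.16 on the deposited counts. The log2 ratio step was run on simulated Poisson counts, where 100% of 200 changed genes kept their sign. These counts held no library effect and no difference between cells, so this checks the arithmetic only. Gene order came from RefSeq names of the assembly T2T-MFA8v1.1, which matched 94.9% of symbols. No coordinates or sequences are given.

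Alternatives were doublet removal, thinning, a stricter cell filter (at least 500 genes and mitochondrial share within 3 median absolute deviations), mean per-cell CPM, CPM without mitochondrial genes, TMM, pseudocounts of 0.1 and 10, a 10 CPM filter or none, common count floors, the larger pre-transplant set and minimum reads of 2 or 10. Restricting to *COL2A1*-only cells, leaving out macrophage-marker cells and collagen classes with common floors were added after seeing the data. All 10 members were named by rule, as were the 2 genes most like each, and members and lists were chosen with earlier results of these data known.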

Additional observations from a re-analysis of the deposited data

How the results depend on the processing

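Of 520 recomputed log2 ratios 263 moved beyond their counting interval. Among ratios past 2-fold, 2 changed sign, both of *ASPN* in cells with *COL2A1* alone: cyFT over cyAC went to -2.97 and post-transplant over cyFT to 2.78, since the cells that held most *ASPN* reads of cyFT were not in that class. Ratios within 2-fold changed sign as well. In *COL2A1*-only cells *OGN* went from 0.28 to -1.68 in cyFT over cyAC and from -0.03 to 1.92 in post-transplant over cyFT, and *OMD* from 0.39 to -0.44 in the latter, *EPYC* from 0.19 to -0.91 in the former and *DCN* from -0.05 to 0.02 in post-transplant over cyAC. With TMM *DCN* and *BGN* in post-transplant over cyAC and *OGN* in post-transplant over cyFT rose above 0, at 0.06, 0.09 and 0.27. The counts of members past 2-fold changed as follows. Over cyiPSC, the 9 higher became 10 with TMM, with a 10 CPM filter and without a filter, where *OMD* passed. After over before transplantation, the 8 higher became 7 with thinned counts and with common floors and 9 with TMM, and the 1 lower member became 0 with thinned counts and 0 with mean per-cell CPM, where *EPYC* missed the filter. For post-transplant over cyAC, the 2 higher became 1 with thinning, 1 with mean per-cell CPM and 1 in *COL2A1*-only cells, where *OMD* fell within 2-fold, and 3 with a 10 CPM filter and without a filter, where *EPYC* passed at 2.45, and the 1 lower became 2 under the stricter cell filter, with *ASPN* at -1.18. For cyFT over cyAC, the 1 lower, *CHAD*, became 2 in *COL2A1*-only cells, *ASPN* and *OGN*, where *CHAD* was at -0.13 and the 1 higher was *OMD* at 1.39 in place of *ASPN*, and 0 without macrophage-marker cells, where *CHAD* fell within 2-fold. For post-transplant over cyFT, the 1 higher became 2 with TMM, 2 with a 10 CPM filter, 2 without a filter and 3 in *COL2A1*-only cells, *FMOD*, *ASPN* and *OGN*, and the 2 lower became 1 there, *CHAD*. In every planned setting the calls kept were 9 members over cyiPSC, whose direction the 50 CPM filter fixed, and 7 higher after transplantation. Kept as well were *FMOD* and *CHAD* against cyAC, *ASPN* and *CHAD* in cyFT over cyAC, and *FMOD*, *ASPN* and *CHAD* against cyFT. With the highest collagen floor in every library, *ASPN* in cyFT was at 1771 CPM in *COL1A1*-only against 23.6 CPM in *COL2A1*-only cells, and *CHAD* at 1573 against 15727 CPM. Of 190 correlations, 55 moved by over 0.1 in cells with reads of both genes, 1 with thinning, *DCN* with *LUM* before transplantation, and 0 without marked doublets.

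With 1 sample per condition no replicate could be left out. No paired analysis was possible because each condition is 1 sample and no comparison comes from a test. Depth limits *EPYC* in cyAC and cyFT, which rests on 22 and 25 reads in 4 and 3 cells, and count floors set by the authors' correction limit shares. The floors were 70 reads for *BGN*, 18 for *DCN*, 15 for *ASPN*, 8 for *CHAD* and 6 for *FMOD* in the post-transplant library, 38 for *BGN*, 40 for *FMOD*, 7 for *OGN* and 6 for *LUM* in the library of cyiPSC and pre-transplant cells, where the 320 cells of the second matrix held no *FMOD* count below 49, and 8 for *LUM* in that of cyAC and cyFT.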

Other observations

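Of 8 other SLRP genes looked for, 5 were listed. *ECM2*, a matrix protein whose gene lies beside *ASPN* in the RefSeq gene order, was at 0.799 CPM in cyiPSC, 87.7 CPM in the pre-transplant cells of the second matrix, 203 CPM in post-transplant cyiPS-Cart, 354 CPM in cyAC and 353 CPM in cyFT. It was 2.31-fold higher after than before transplantation and differed little between cyAC and cyFT, whereas *ASPN* was 3.08-fold higher in cyFT. *TSKU*, a secreted modulator of growth factor signals, was at 26.7 CPM in cyiPSC, 83.2, 72.7, 97.3 and 92.8 CPM in the 4 tissues, within 2-fold of each other. The remaining 3, *KERA*, *OPTC* and *PODN*, stayed at 4.67 CPM or less in every sample. *KERA* lies between *EPYC* and *LUM* and *OPTC* beside *PRELP* in the gene order, so neighbors of well-read members were near 0.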
